A study of Aspergillus niger with 16 samples.

Results

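A set of 21 genes of Aspergillus niger was examined. They had lower transcript levels without *gaaR* after 24 h on sugar beet pectin (SBP). Before that they differed between the strains by less than a set limit. They are 21 of 11580 genes listed in any library. Members were chosen on the measured values themselves. For each condition R is the log2 ratio of mean FPKM + 1 in the deletion strain (ΔgaaR) over mean FPKM + 1 in the reference strain, where FPKM is the fragment count scaled to gene length and library total. A member had R of -3 or lower at SBP 24 h and R between -1 and 1 on D-galacturonic acid (GA, 2 h) and on SBP at 2 and 8 h. The tags NRRL3_00130 to NRRL3_00165, NRRL3_08631 and NRRL3_08805 were left out beforehand. Comparisons of the members between the 2 strains within a condition therefore describe how the set was chosen and are given without a test.

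*gaaR* encodes an activator of the zinc cluster type that switches on genes for the release, uptake and breakdown of GA, the main sugar of the pectin backbone. In A. niger, a filamentous fungus known for its plant cell wall enzymes, its partner GaaX holds the activator inactive until an intermediate of GA breakdown is present. Pectin also carries side chains of other sugars, which other regulators respond to.

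The groups were ΔgaaR (strain CBS 141258) and the reference (CBS 141257), each given 25 mM GA (2 h) or 1% SBP (2, 8 or 24 h), with 2 libraries a group and 16 in all. Every culture began with 16 h of pregrowth on 2% fructose in complete medium; the washed mycelium then went into minimal medium (pH 6, 30 °C, 250 rpm). Each genotype is 1 collection strain, and the labels do not say whether replicates were separate cultures, so p-values measure the spread between these libraries alone, and that spread may be technical. Libraries held 3203011 to 4574019 reads. Replicates correlated at 0.972 to 0.988 across genes on log2(FPKM + 1). The deleted gene, taken to be NRRL3_08195 (a tag recalled and not looked up), had 0 to 30 reads in the 8 ΔgaaR libraries and 176 to 1984 in the 8 reference libraries. In such bulk samples fewer cells of a type and less RNA per cell cannot be told apart, and no marker list of other cell types could be applied, since the locus tags are not paired with names here.

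The set is a small part of what was low at 24 h. R reached -3 or lower at SBP 24 h in 176 genes (1.52% of all listed). Of these, 101 had R of -1 or lower in at least 1 other condition, 36 of them in all 3, and 59 had R of 1 or higher in at least 1 other condition. The limits on the earlier conditions were met by 30 genes, of which 9 were left out by their tags. The members closest to the threshold of -3 were NRRL3_00700 (R = -3.06), NRRL3_03193 (-3.12) and NRRL3_10156 (-3.13), and the closest genes outside were NRRL3_06161 (-2.92), NRRL3_09066 (-2.80) and NRRL3_00887 (-2.78). NRRL3_00887 had 5.20 and 9.77 FPKM in ΔgaaR and 36.3 and 78.5 FPKM in the reference at 24 h. None of the 11580 tags matched (0 matches) a gene table of another A. niger strain, so members are given by tag and without a function.

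At SBP 24 h mean levels of the 21 members ranged from 0 to 20.4 FPKM in ΔgaaR (median 6.47) and from 8.69 to 503 FPKM in the reference (median 86.2). Both ΔgaaR libraries lay below both reference libraries for all 21 members, a separation that the threshold makes likely and that 23.3% of all listed genes showed. R ranged from -5.22 to -3.06 with a median of -3.37, against a median of 0.14 over all listed genes. With FPKM rebuilt on TMM-scaled library sizes the median R over the same 11580 genes was 0, and 22 genes met the rule, all 21 members among them. In the 3 earlier conditions R of the members lay between -0.81 and 0.84. The median of the members' mean levels was 5.30 FPKM in ΔgaaR and 3.22 FPKM in the reference on GA, 6.86 FPKM in ΔgaaR and 6.63 FPKM in the reference on SBP at 2 h, and 4.34 FPKM in ΔgaaR and 4.83 FPKM in the reference at 8 h. At 24 h a member had 0 to 176 reads in a ΔgaaR library and 3 to 4407 reads in a reference library.

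**Figure D1:**
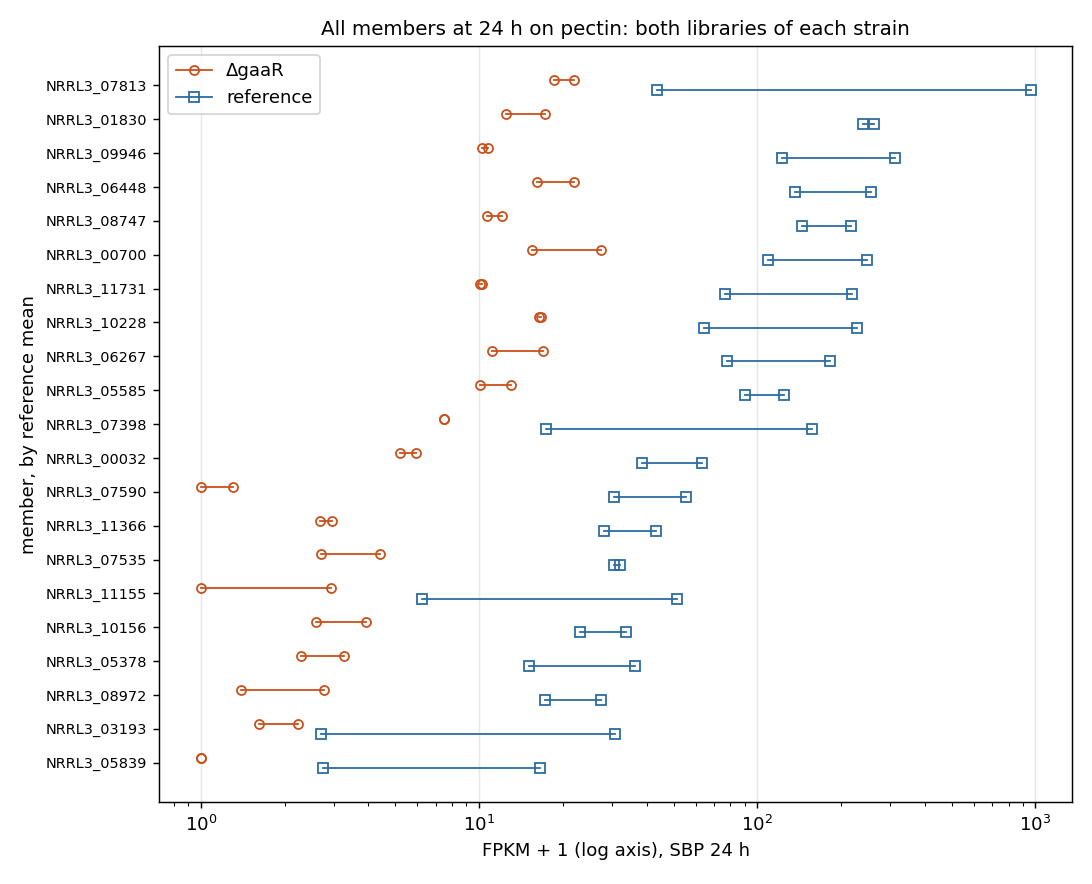
FPKM + 1 on a log axis at 24 h on SBP for each of the 21 members, ordered by the reference mean; circles are the 2 ΔgaaR libraries, squares the 2 reference libraries, and lines join the libraries of a group. The ΔgaaR points lie left of the reference points in every row, and the reference libraries spread more widely than the ΔgaaR libraries for several members, most of all for NRRL3_07813.

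Most members were low in both strains before 24 h. In 13 of 21 every earlier group mean was under 10 FPKM, and in 6 under 3 FPKM. NRRL3_01830 had the highest reference level at 24 h among them. In ΔgaaR it had 0.29 and 0.35 FPKM on GA, 0.57 and 1.08 FPKM at 2 h on SBP, then 1.56 and 2.53 at 8 h and finally 11.5 and 16.2 at 24 h. In the reference it had 0.46 and 1.19 FPKM on GA, 0.27 and 0.37 at 2 h on SBP, then 1.85 and 1.66 at 8 h and finally 261 and 239 at 24 h. All 12 earlier libraries lay under 3 FPKM. Its 2 h libraries held 2 to 9 reads each, so its R there rests on few reads. At 24 h the strains stood far apart (R = -4.08), and both ΔgaaR libraries were also above all earlier ΔgaaR libraries.

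NRRL3_00700 behaved in a similar way, with 14.45 and 26.35 FPKM in ΔgaaR and 108 and 247 FPKM in the reference at 24 h, and 1.09 to 3.37 FPKM in all 12 earlier libraries. NRRL3_00032 had 4.92 and 4.19 FPKM in ΔgaaR and 62.3 and 37.5 FPKM in the reference at 24 h. Its 12 earlier libraries held 0.24 to 3.84 FPKM. NRRL3_09946, the member with the longest coding sequence (3015 bases), was low rather than silent: 9.24 and 9.81 FPKM in ΔgaaR at 24 h against 122 and 312 FPKM in the reference, and 4.39 to 10.8 FPKM in the earlier libraries.

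The lowest R in the set belonged to NRRL3_07590. It had 0 and 0.31 FPKM in ΔgaaR (0 and 2 reads) and 54.6 and 29.7 FPKM in the reference (372 and 208 reads) at 24 h, and 0 reads in all 4 libraries at 8 h (R = -5.22). For NRRL3_10156, ΔgaaR had 1.59 and 2.92 FPKM and the reference 22.0 and 32.9 FPKM at 24 h; the 12 earlier libraries held at most 1 read each. NRRL3_05378 was alike, with 1.30 and 2.28 FPKM in ΔgaaR against 35.4 and 14.1 FPKM in the reference. The groups of these 3 genes did not overlap at 24 h, and their earlier R rests on so few reads that a difference there was not detectable at this depth.

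NRRL3_07535 and NRRL3_08972 were detected at low levels throughout. NRRL3_07535 had 1.70 and 3.41 FPKM in ΔgaaR and 31.2 and 29.6 FPKM in the reference at 24 h. NRRL3_08972 had 1.78 and 0.40 FPKM in ΔgaaR and 16.3 and 26.5 FPKM in the reference. Both reference libraries exceeded every earlier reference library for these genes.

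Another 7 members were expressed in every group before 24 h, at means of at least 10 FPKM. NRRL3_11731 had 96.1 and 82.95 FPKM in ΔgaaR on GA, 40.1 and 67.0 at 2 h on SBP, then 38.2 and 31.9 at 8 h and finally 9.26 and 9.11 at 24 h. In the reference it had 50.2 and 53.2 FPKM on GA, 45.8 and 48.6 at 2 h on SBP, then 38.6 and 33.4 at 8 h and finally 218 and 75.4 at 24 h. The ΔgaaR level at 24 h was thus the lowest of its 4 conditions and the reference level the highest.

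NRRL3_06267 was similar, with 10.1 and 15.9 FPKM at 24 h and 64.0 and 55.8 FPKM at 8 h in ΔgaaR. In the reference it had 182 and 76.7 FPKM at 24 h and 37.7 and 43.0 FPKM at 8 h. The lower of these 24 h values lay within the range of that strain's GA libraries (76.5 and 109 FPKM). NRRL3_11366, named after its values were seen, had 1.69 and 1.97 FPKM at 24 h and 17.2 and 12.3 FPKM at 8 h in ΔgaaR. In the reference it had 42.3 and 27.1 FPKM at 24 h and 11.6 and 9.19 FPKM at 8 h. NRRL3_06448 had 15.1 and 20.9 FPKM at 24 h and 22.9 and 20.3 FPKM at 8 h in ΔgaaR, and 136 and 254.5 FPKM at 24 h and 18.6 and 20.7 FPKM at 8 h in the reference. For NRRL3_06448 the ΔgaaR libraries of the 2 times overlapped, while those of NRRL3_06267 and NRRL3_11366 did not.

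NRRL3_10228 had 15.7 and 15.4 FPKM in ΔgaaR and 226 and 63.4 FPKM in the reference at 24 h, with 7.88 to 41.8 FPKM in the earlier libraries. NRRL3_08747 fell between the classes, with its highest earlier level on GA in both strains. It had 50.0 and 50.8 FPKM on GA, 16.5 and 23.1 at 2 h on SBP, then 6.22 and 5.05 at 8 h and finally 11.1 and 9.70 at 24 h in ΔgaaR. In the reference it had 72.5 and 58.2 FPKM on GA, 13.7 and 14.2 at 2 h on SBP, then 5.53 and 4.13 at 8 h and finally 144 and 216 at 24 h. Its reference level at 24 h was above that on GA, and its ΔgaaR level was not.

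**Figure D2:**
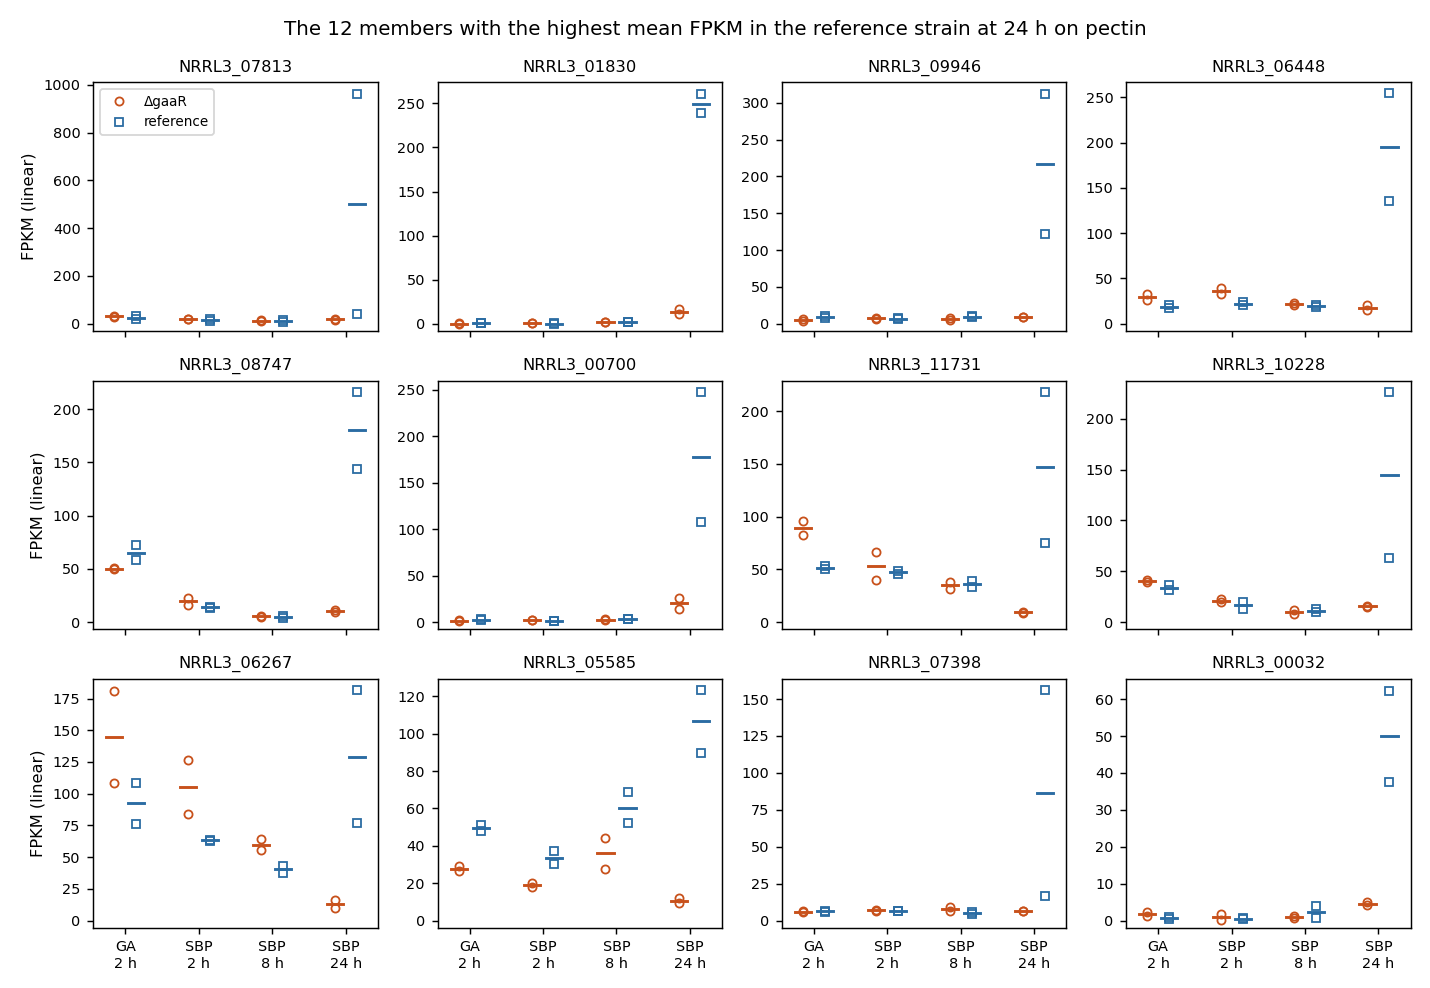
FPKM on linear axes for the 12 members with the highest reference mean at 24 h, in GA 2 h and SBP 2, 8 and 24 h; circles are ΔgaaR libraries, squares reference libraries (2 each), and bars their means. The strains stay within the rule's limit until 8 h on SBP and part at 24 h; NRRL3_05585 has ΔgaaR below the reference throughout.

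The change between 8 and 24 h was described in each strain. The 8 and 24 h libraries chose the members, so a higher level in the reference or a lower one in ΔgaaR at 24 h is built in, and the counts that follow are no test. Mean FPKM + 1 in ΔgaaR was at least 2-fold higher at 24 h in 5 of 21 members (15.4% of all listed genes) and at least 2-fold lower in 5 (6.87%). In the reference it was at least 2-fold higher in 20 (18.3%). Of the 20 members that passed edgeR's filter on low counts (NRRL3_03193 did not), 4 were called higher in ΔgaaR (14.0% of all genes tested) and 4 lower (15.0%), and 19 were called higher in the reference (23.5%). With total count scaling, 22.5% of all genes were called higher in ΔgaaR and 9.69% lower, with 6 members higher and 4 lower. Both ΔgaaR libraries were lower and both reference libraries higher at 24 h than at 8 h in 6 members, as in 7.34% of all listed genes. The ratio of mean FPKM + 1 had a log2 median over the members of 0.21 in ΔgaaR and 3.85 in the reference, and over all listed genes of 0.21 in ΔgaaR and 0.07 in the reference. On FPKM the members' median in ΔgaaR was thus close to that of all genes, with members moving both ways. In the edgeR fit the median log2 fold change in ΔgaaR was 0.28 for the members and 0.01 for all genes.

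The 4 members called higher in ΔgaaR were NRRL3_00700, NRRL3_01830, NRRL3_05378 and NRRL3_10156, all under 4 FPKM in every earlier library. This count dropped to 2 without either ΔgaaR library of 8 h or without ΔgaaR replicate 2 of 24 h. The 4 called lower were NRRL3_05585, NRRL3_06267, NRRL3_11366 and NRRL3_11731, all with means of at least 10 FPKM in every group before 24 h. Their number was 4 without each of the 4 libraries in turn. On the FPKM scale their log2 ratios of 24 h over 8 h in ΔgaaR were -1.67, -2.12, -2.48 and -1.82. Among the 13 members under 10 FPKM before 24 h the median log2 ratio was 0.48 in ΔgaaR and 4.36 in the reference. For the 7 with at least 10 FPKM in every group before 24 h it was -1.67 in ΔgaaR and 2.00 in the reference. The limit of 10 FPKM was chosen after the values were seen, and these medians are a description. Members near 0 FPKM at 8 h could hardly fall, and the threshold at 24 h favours expressed genes that fell in ΔgaaR. The split by earlier level, in calls and in medians, is therefore largely built in.

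**Figure D3:**
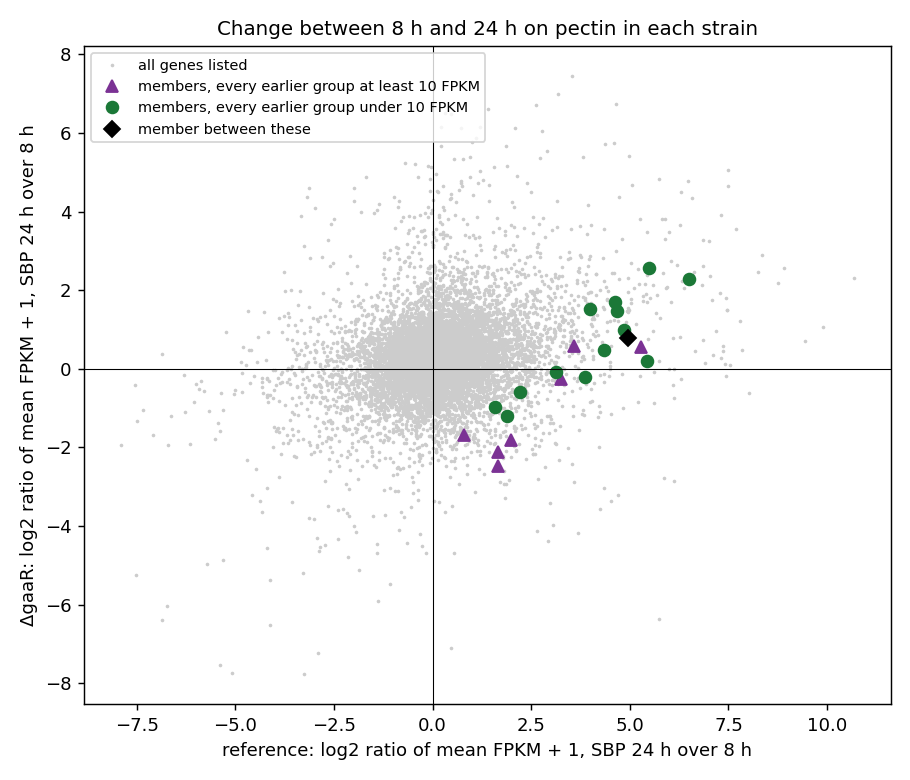
Log2 ratio of mean FPKM + 1 at SBP 24 h over 8 h in ΔgaaR (vertical) against the reference (horizontal) for all listed genes (grey) and the 21 members by their level before 24 h. Members lie between -2.48 and 2.56 in ΔgaaR and between 0.81 and 6.51 in the reference, with 4 of the 7 triangles below -1.

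Changes between groups before 24 h were tested, since the rule set no limit on them within a strain. The spread behind these tests was estimated over all 16 libraries, however, including those of 24 h that were used to choose the members. Members with 24 h reference libraries far apart could thus have a larger SE here. The rule did hold the strains close in each earlier condition, so a like change in both strains is partly built in. Between SBP 8 h and 2 h, in ΔgaaR 2 of 20 were called higher (15.0% of all genes) and 2 lower (15.3%). In the reference 2 were called higher (21.0%) and 1 lower (19.5%). No comparison is made with the shares of all genes, partly because of that shared spread. In addition, 5 of the 21 members had at most 10 reads in every library before 24 h. Such members passed the low-count filter through the 24 h libraries, and small changes in them were not detectable at earlier times. NRRL3_08747 was the clearest, with log2 fold changes of -1.92 (SE 0.28, adjusted p = 1e-04) in ΔgaaR and -1.65 (SE 0.30, adjusted p = 0.00038) in the reference by edgeR's quasi-likelihood test.

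NRRL3_01830 was higher at 8 h than at 2 h, by 1.23 (SE 0.45, adjusted p = 0.048) in ΔgaaR and 2.27 (SE 0.56, adjusted p = 0.0042) in the reference, on 11 and 20 reads against 5 and 8 in ΔgaaR and 14 and 12 reads against 2 and 3 in the reference. The ΔgaaR call was lost without either library of 2 h or replicate 2 of 8 h (adjusted p from 0.062 to 0.28) and with DESeq2 (0.0575), while the reference call held without each library in turn. NRRL3_05585 changed by 0.78 (SE 0.28, adjusted p = 0.048) in ΔgaaR and 0.73 (SE 0.27, adjusted p = 0.043) in the reference. In ΔgaaR that call was lost without replicate 1 or 2 of 2 h or replicate 1 of 8 h (adjusted p from 0.056 to 0.44), and in the reference without replicate 1 or 2 of 2 h or replicate 2 of 8 h (0.079 to 0.29). NRRL3_06448 changed by -0.87 (SE 0.30, adjusted p = 0.040) in ΔgaaR, a call lost without replicate 1 of 2 h or either library of 8 h (0.10 to 0.29), and by -0.30 (SE 0.31, adjusted p = 0.46) in the reference.

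Between SBP and GA at 2 h the same pair of members was called in each strain. The rule's limits on R in both conditions favour such a likeness, so nothing is read from it. NRRL3_08747 was lower on SBP, by -1.33 (SE 0.24, adjusted p = 0.00059) in ΔgaaR and -2.27 (SE 0.25, adjusted p = 1.8e-06) in the reference. NRRL3_07535 was higher on SBP, by 2.17 (SE 0.51, adjusted p = 0.0042) in ΔgaaR and 1.51 (SE 0.49, adjusted p = 0.016) in the reference; the reference call was lost without either GA library or SBP replicate 2 (adjusted p from 0.076 to 0.099). In ΔgaaR the value was 1.43 without GA replicate 1 and 3.81 without GA replicate 2, and the call was lost when only the libraries compared were fitted (adjusted p = 0.075). Among all genes 16.1% were called higher and 14.9% lower in ΔgaaR, and 27.3% and 25.3% in the reference. The same members with few early reads could hardly be called here, and the spread again took in the 24 h libraries. The members' 1 of 20 in each direction is therefore not read against these shares.

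NRRL3_05585 met the rule's limits but was lower in ΔgaaR before 24 h too. It had 29.2 and 26.5 FPKM in ΔgaaR against 51.2 and 47.8 FPKM in the reference on GA, and 20.1 and 18.2 against 37.0 and 30.0 FPKM on SBP at 2 h. At 8 h it had 44.4 and 27.5 FPKM in ΔgaaR and 52.0 and 68.9 FPKM in the reference, and at 24 h 9.12 and 12.1 FPKM in ΔgaaR and 123 and 89.6 FPKM in the reference. Both ΔgaaR libraries were below both reference libraries in all 4 conditions.

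Reference libraries of 24 h differed from each other for many members. They were over 2-fold apart in 11 of 21 members. Among those with a reference mean of at least 10 FPKM it was 10 of 20, against 6.24% of all 6935 such genes. The members were chosen on the mean of these 2 libraries, which favours genes with 1 high library, so nothing is read from that count. Replicate 1 was the higher in 7 of the 11 and replicate 2 in 4, so neither library was high throughout. NRRL3_07813 had 17.55 and 20.95 FPKM in ΔgaaR and 42.7 and 962 FPKM in the reference, and NRRL3_07398 had 6.46 and 6.48 FPKM in ΔgaaR and 156 and 16.4 FPKM in the reference. Without the high library R at 24 h was -1.11 for NRRL3_07813 and -1.22 for NRRL3_07398.

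NRRL3_11155, NRRL3_03193 and NRRL3_05839, named here for the same reason after their values were seen, rest on 1 reference library too. NRRL3_11155 had 0 and 7 reads in ΔgaaR and 20 and 198 in the reference, and R of -1.66 without reference replicate 2. NRRL3_03193 had 1 and 2 reads in ΔgaaR and 51 and 3 in the reference, and without reference replicate 1 its R was -0.48. NRRL3_05839 had 0 and 0 reads in ΔgaaR and 35 and 4 in the reference, and R of -1.45 without reference replicate 1. When each 24 h reference library was left out in turn, 7 members met the rule both times. When each of the 16 libraries was left out in turn, 4 met it every time: NRRL3_01830, NRRL3_09946, NRRL3_08747 and NRRL3_07590. This covers the choice of library only. In the 2 h libraries NRRL3_01830 held 2 to 9 reads and NRRL3_07590 held 0 to 4. With a pseudocount of 0.1 FPKM neither stayed within the limits on the earlier conditions.

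Members did not lie next to each other by tag number, the closest pair being 55 tags apart. The rule shapes this in part. The 9 genes that met the limits on R but were left out by tag all lie in NRRL3_00130 to NRRL3_00165. Some neighbours of the members were also low in ΔgaaR at 24 h. Of 122 listed genes within 3 tags of a member, 22 had R of -1 or lower (18.03%, against 9.65% of all listed genes). R of -3 or lower was found in 9 of them, a limit met by 1.52% of all listed genes. Among the 9, NRRL3_05584, NRRL3_05586 and NRRL3_05587 all lie near a single member, NRRL3_05585. In the other direction 12 had R of 1 or higher, and no share of all genes was computed for that limit. The median R of the neighbours was -0.12. Of the 41 genes with the very next tag, 13 had R of -1 or lower. This is the comparison that chose the members, in genes that were not chosen, and it is given as a description.

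Beside NRRL3_01830, NRRL3_01829 had 13.5 and 16.9 FPKM in ΔgaaR and 599 and 415 FPKM in the reference at 24 h. It missed the rule by its R on GA alone (-1.09, at 0.70 and 1.03 FPKM in ΔgaaR and 3.04 and 2.88 FPKM in the reference). NRRL3_06447, beside NRRL3_06448, had 6.2 and 2.30 FPKM in ΔgaaR and 64.3 and 552 FPKM in the reference, the higher library being the same as for the member. NRRL3_07397, beside NRRL3_07398, likewise had 2.29 and 5.57 FPKM in ΔgaaR and 103 and 15.9 FPKM in the reference, with the member's own high library. NRRL3_06266, beside NRRL3_06267, had 11.7 and 18.9 FPKM in ΔgaaR and 551 and 214 FPKM in the reference.

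NRRL3_05585 stood in a row of genes that were low in ΔgaaR, with R at 24 h of -3.13 for NRRL3_05584, -3.27 for NRRL3_05586 and -4.05 for NRRL3_05587. At 8 h these 3 had R of -2.26, -2.67 and -4.43, against -0.73 for the member. NRRL3_00701, beside NRRL3_00700, had R of -6.48 at 24 h and -4.93 at 8 h. Strand and distance between these genes were not analysed here, and whether neighbours share reads was not tested. The neighbours were named after their values were seen.

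**Figure D4:**
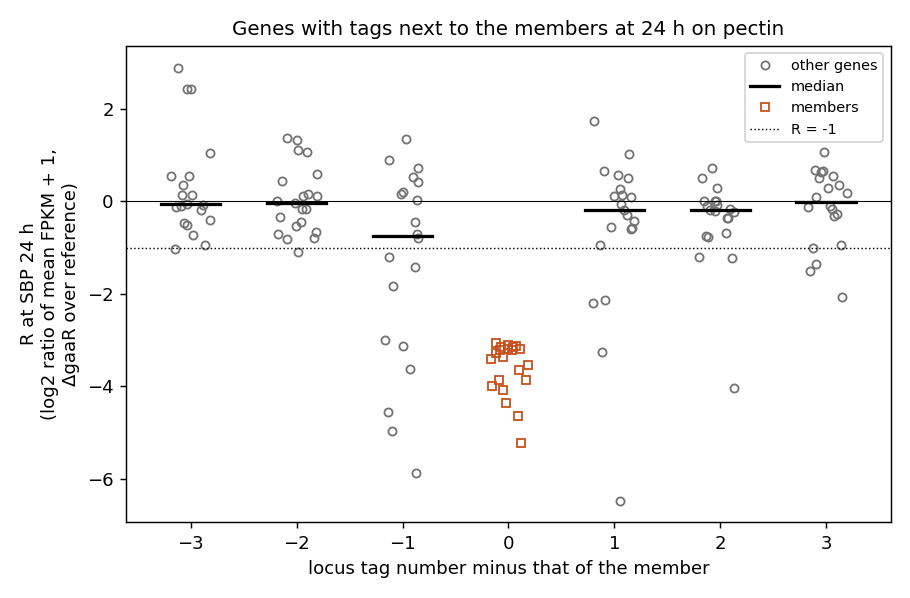
R at SBP 24 h (log2 ratio of mean FPKM + 1, ΔgaaR over reference) for the 21 members (squares) and for genes whose tag number lies up to 3 away (circles), with the median per offset as a bar. At an offset of -1, 9 of 20 genes lie at or below -1, and at an offset of 1, 4 of 21, beside 9.65% of all listed genes. Strand was not analysed, so nothing is read from the difference between the sides.

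Coding lengths of the members ran from 408 to 3015 bases, with a median of 1008, against 1278 over all listed genes. NRRL3_01830 and NRRL3_06448 have the same coding length of 1977 bases, as do 9 genes in all. Expected counts of the members were whole numbers in every library (0 exceptions).

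Genes through which *gaaR* is known were set beside the members. Tags for 5 genes of GA uptake and breakdown and 16 pectin enzymes were recalled from publications on this regulator and not looked up, and their direction is not independent evidence. All 5 GA genes were called lower in ΔgaaR in each of the 3 earlier conditions and 4 at 24 h. Of the 16 pectin enzymes, 12 were called lower in each earlier condition and 10 at 24 h, with 1 called higher on GA and 2 at SBP 8 h. Among all genes tested 23.5% were called lower and 26.2% higher on GA, 7.21% and 7.35% at SBP 2 h, 21.4% and 22.4% at 8 h, and 15.8% and 12.6% at 24 h. *gaaR* and its partner *gaaX*, listed apart, were both called lower in all 4 conditions (2 of 2). Between 24 h and 8 h on SBP in the reference, 5 of 5 GA genes and 12 of 16 pectin enzymes were called lower and 2 enzymes higher (21.4% of all genes lower, 23.5% higher). An enzyme gene, *rgxB* (NRRL3_08631), is among the tags left out, and its R at SBP 8 h missed the rule's limits anyway. It had 0.59 and 0.40 FPKM in ΔgaaR and 88.3 and 145 FPKM in the reference at 24 h, with R of 0.25 on GA, 0.09 at SBP 2 h, -2.08 at 8 h and -6.30 at 24 h. It was singled out after its values were seen. For *gatA*, the GA transporter gene, ΔgaaR had 1.51 and 2.12 FPKM at 24 h and 19.5 and 24.3 FPKM at 8 h, and the reference had 44.8 and 71.0 FPKM at 24 h and 1134 and 1021 FPKM at 8 h. None of the 21 named genes had R between -1 and 1 in all 3 earlier conditions (0 of 5 and 0 of 16). The rule required such R of the members, and no share of all genes was computed for it, so nothing is read from that count.

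Closest to the members' median profile over the 16 libraries, among genes with at least 10 FPKM in the reference at 24 h, were NRRL3_00148 (Pearson r = 0.973), NRRL3_00146 (0.971), NRRL3_00150 (0.970), NRRL3_00153 (0.967) and NRRL3_00147 (0.967). All 5 come from the run of tags that was left out. Each met the rule's limits on R (-7.60 to -6.11 at 24 h) and was removed by its tag alone, so the likeness is built in. NRRL3_00146 had 0.47 and 0.32 FPKM in ΔgaaR and 235 and 302 FPKM in the reference at 24 h. The correlations share the same 16 libraries and are a description. Within the set, correlation with the members' median profile ran from 0.233 for NRRL3_06267 to 0.955 for NRRL3_07590.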

How the data were processed

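Total RNA of 16 mycelium samples was sequenced with Illumina protocols. Per the file headers, the authors deposited for each library an RSEM expected count per gene, which is not normalized, and an FPKM value, scaled by gene length and library total. BWA, Bowtie2 and RSEM, with no version or role, appear in the submitters' processing notes. Gene identifiers in the files carry a JGI prefix and NRRL3 tags; the genome build is otherwise not given in the sources used here. Only genes with a count above 0 were listed (10245 to 10857 per library), so unlisted genes were taken as 0. As 100% of the deposited gene lengths divide by 3, they are called coding lengths.

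Levels and R come from FPKM with a pseudocount of 1. Rounded expected counts entered a quasi-likelihood F test in edgeR 4.0.16 (R 4.3.3; two-sided, TMM scaling, filterByExpr, 1 mean per group, all 16 libraries, 8 residual degrees of freedom, 10003 genes). The p-values were adjusted by Benjamini-Hochberg over all of these genes and called under 0.05. The SE is the size of the log2 fold change divided by the square root of F. The procedure was tested on simulated counts with the same spread for every gene and changes only in genes with enough reads. That test does not cover members with few reads or a wide spread. DESeq2 1.42.0 and limma 3.58.1 served as alternatives, and Python 3.11.15 with pandas 2.3.3 and matplotlib 3.10.9 did the rest.

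The members and lists were chosen with earlier results of these data known. Named genes follow a fixed rule: *gaaR*, the 12 members with the highest reference level at 24 h, the 3 genes nearest the threshold on each side, the members called between 8 and 2 h on SBP in the reference, and the 5 genes most like the members. Other genes named were chosen after their values were seen.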

Additional observations from a re-analysis of the deposited data

Results flagged for a closer look

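Between 8 and 24 h on SBP, 6 members went opposite ways in the 2 strains, both ΔgaaR libraries lying lower at 24 h than at 8 h and both reference libraries higher. The log2 ratio of mean FPKM + 1 in ΔgaaR was -1.67 for NRRL3_05585, -2.12 for NRRL3_06267, -0.22 for NRRL3_07398, -0.59 for NRRL3_07535, -2.48 for NRRL3_11366 and -1.82 for NRRL3_11731. In the reference the same ratio was 0.81, 1.65, 3.85, 2.22, 1.65 and 2.00 in that order of genes. Such a split was found in 7.34% of all listed genes, and the threshold at 24 h favours it among the members. In ΔgaaR edgeR called 4 of the 6 lower. NRRL3_07398 and NRRL3_07535, with log2 fold changes of -0.53 and -1.02, were not called. For NRRL3_07398 the ΔgaaR libraries held 6.46 and 6.48 FPKM at 24 h (38 and 38 reads). At 8 h they held 6.51 and 8.90 FPKM (32 and 49 reads), so the reads overlapped. Its reference libraries of 24 h were far apart (156 and 16.4 FPKM). The difference between the strains was not tested, because the rule that chose the members fixes it.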

How the results depend on the processing

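The number of members was 59 with a threshold of -2 at 24 h and 4 with -4, and 15 to 28 without 1 library in turn; with a pseudocount of 0.1 or 5 FPKM it was 24 and 18, of which 13 and 7 were among the 21. Counts of called members are small. For SBP 8 h against 2 h in ΔgaaR, the 2 higher became 1 without the low-count filter, with either limma fit, with DESeq2 and with the replicate number as a block, and 0 with only the libraries compared; the 2 lower became 1 with RLE or total count scaling, either limma fit, DESeq2 and only the libraries compared. Leaving out 1 library gave 0 to 1 higher and 1 to 4 lower there, 2 to 3 higher for 24 h against 8 h in ΔgaaR (main value 4), 1 to 2 higher for 8 h against 2 h in the reference, and 0 to 1 higher and 1 to 2 lower for SBP against GA in the reference. In the reference, 8 h against 2 h had 1 higher with DESeq2 and 3 lower with only the libraries compared, and SBP against GA had 2 lower with RLE, no filter or DESeq2 and 4 with only the libraries compared. SBP against GA in ΔgaaR had 2 lower with limma on log2(FPKM + 0.1) and 0 higher with only the libraries compared. The causes were not tested. No named log2 fold change reversed. Deviations of same-numbered libraries correlated at -0.355 to 0.175 in comparisons within a strain, and libraries of different strains were not compared this way. The main fit did not pair libraries by replicate number, and no other count of members moved by over 1.5 times under the block.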
